A study of Mus musculus with 6 samples.

Results

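The ZBTB genes encode transcription factors with an N-terminal BTB domain and C-terminal C2H2 zinc fingers, and their transcripts were examined in leukaemic mouse B cells with and without gamma-catenin. Members were the array rows whose annotation gave exactly 1 gene symbol beginning with Zbtb and a digit, taking for each gene the probe set with the highest mean over the arrays. This gave 42 genes, covered by 45 probe sets, out of 19938 genes and 21789 probe sets with exactly 1 symbol. Of these, 40 encode BTB zinc finger proteins. Zbtb8os, named for lying on the strand opposite Zbtb8a, encodes a protein related to archease, a cofactor of the tRNA ligase, and Zbtb11os1 is a noncoding RNA opposite Zbtb11.

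There were 3 arrays from Jup-/- cells (KO) and 3 from Jup+/+ cells (WT), each described as a biological replicate. Jup encodes gamma-catenin, a junction protein closely related to beta-catenin. All samples shared the C57BL/6 background and the same history. CD45.1+ mice received CD45.2+ fetal liver cells of either genotype, their marrow was later infected with a retrovirus for BCR-ABL1 and GFP, and lethally irradiated CD45.1+ hosts were transplanted with it. GFP+ B220+ BP-1+ CD45.2+ cells were sorted from bone marrow at day 21. Loss of gamma-catenin therefore concerned every donor-derived blood cell and not B cells alone. No source used here gives the age of the mice, the deleted part of Jup or whether a sample pooled several mice, and p-values measure only the spread between these samples.

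In ZBTB proteins the BTB domain pairs the molecules and recruits corepressors with histone deacetylases, or the ubiquitin ligase scaffold CUL3, while the zinc fingers choose the DNA site. Several members direct blood cell fate: Zbtb7a (LRF) keeps early lymphoid cells on the B cell path by opposing Notch, Zbtb7b (ThPOK) sets CD4 T cell identity, Zbtb16 (PLZF) marks innate-like T cells, Zbtb46 marks classical dendritic cells, and Zbtb17 (Miz-1) is a partner of MYC needed for early B cell development. Zbtb20 represses alpha-fetoprotein in the liver and supports long-lived plasma cells. Kaiso, encoded by Zbtb33, binds methylated CpG sites and the p120 catenin.

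Promoters of 4 members are shown because these genes had the largest differences between the genotypes or held a motif tied to catenins. RefSeq (GRCm38.p6) had promoter entries for 37 of the 42 members, 50 entries in all. The 250 bases before the annotated start are given 5′ to 3′ in lower case, with matches to the motifs named below in capitals.
Zbtb20, chr16:43247034-43247283 (plus strand): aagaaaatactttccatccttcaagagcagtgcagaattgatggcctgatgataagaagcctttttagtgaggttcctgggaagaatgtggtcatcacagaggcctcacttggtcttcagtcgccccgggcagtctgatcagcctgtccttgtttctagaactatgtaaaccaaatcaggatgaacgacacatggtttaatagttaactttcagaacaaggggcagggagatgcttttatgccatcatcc
Zbtb8a, chr4:129378029-129378278 (minus strand): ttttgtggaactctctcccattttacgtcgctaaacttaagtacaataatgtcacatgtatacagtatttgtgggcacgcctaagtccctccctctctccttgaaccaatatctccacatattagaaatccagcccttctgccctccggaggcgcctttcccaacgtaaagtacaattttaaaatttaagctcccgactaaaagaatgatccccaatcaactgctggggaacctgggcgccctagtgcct
Zbtb4, chr11:69765662-69765911 (plus strand): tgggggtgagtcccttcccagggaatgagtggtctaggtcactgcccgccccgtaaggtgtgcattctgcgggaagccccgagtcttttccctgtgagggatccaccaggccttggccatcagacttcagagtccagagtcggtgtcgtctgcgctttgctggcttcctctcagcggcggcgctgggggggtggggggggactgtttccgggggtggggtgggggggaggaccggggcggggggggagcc
Zbtb18, chr1:177444403-177444652 (plus strand): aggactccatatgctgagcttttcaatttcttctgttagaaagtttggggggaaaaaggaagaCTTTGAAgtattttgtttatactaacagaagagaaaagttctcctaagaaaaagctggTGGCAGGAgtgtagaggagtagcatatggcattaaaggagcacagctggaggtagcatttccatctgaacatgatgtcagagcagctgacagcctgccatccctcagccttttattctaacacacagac

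Zbtb20, with the largest positive difference, and Zbtb8a, with the largest negative one, had the lowest GC content among the 37 members with an entry, taking the most GC-rich entry of each gene. The Zbtb20 window was 44.8% GC with 3 CpG dinucleotides, and the Zbtb8a window 45.6% with 8. The median over the 50 member entries was 64.6% GC and 19.5 CpG, and over all 32851 promoter entries 52.4% and 6.0. The windows of the genes at both ends of the comparison were thus lower in GC than the median of the family and the median of all entries. Single entries of other members were lower still, down to 37.6% GC. The Zbtb18 window shown above was 42.4% GC with 0 CpG, while the most GC-rich Zbtb18 entry was 84.0%. The order by GC therefore depends on the entry taken for each gene. Zbtb20 is a long gene, and the single entry listed covers 1 of its possible starts.

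Motifs were searched on both strands of the same windows. The TCF/LEF site, bound by the DNA partners of catenins, was written as CTTTGAA or CTTTGAT and occurred in 4 of 50 member entries (8.0%, from Zbtb5, Zbtb18 and Zbtb38) and in 7.48% of all entries. The Kaiso site TCCTGCNA occurred in 4 member entries (8.0%, from Zbtb18 and Zbtb37) and in 4.03% of all. The MYC E-box CACGTG occurred in 5 (10.0%, from Zbtb11, Zbtb21, Zbtb25 and Zbtb49) and in 6.02% of all. The entry of Zbtb18 shown above has a TCF/LEF match and, further downstream on the opposite strand, a Kaiso match, which do not overlap. An overlapping Zbtb18 entry starting at 177444411 holds the same matches, so the counts of entries include them more than once. By gene, TCF/LEF matches came from 3 of the 37 members with an entry, Kaiso matches from 2 and E-box matches from 4. The windows of Zbtb20, Zbtb8a and Zbtb4 hold none of these letters.

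The arrays gave log2 signals with medians of 7.53 to 7.61 over the tested probe sets. Pairwise correlations between arrays were 0.991 to 0.996 (Pearson, over probe sets). Jup measured 7.04, 7.06 and 7.27 in KO and 8.04, 7.62 and 8.51 in WT, a difference of -0.93 (SE 0.20, limma adjusted p = 0.171). B-lineage markers were bright, with a mean over 11 measured markers of 12.3 to 12.4 in KO and 12.2 to 12.3 in WT. Of these, 7 were higher and 4 lower in KO, and 0 passed an adjusted p of 0.05. At an unadjusted limma p under 0.05, Rag1 (0.50) and Rag2 (0.42) were higher and Enpep (-0.23) lower. Over all probe sets 4.48% were higher and 4.73% lower at that threshold. Y-linked transcripts were present in WT replicate 2 alone, the 1 array without Xist signal. In the other 5 arrays the Y-linked genes Kdm5d, Uty and Eif2s3y read 3.52 to 5.55, which shows the signal of probe sets without their transcript.

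Signal of the family spanned 5.74 to 10.65 on the log2 scale as the mean of 6 arrays. Probe sets differ in how strongly they bind, so the order is one of array signal and not of transcript number. There were 17 members at 9 or above, 17 between 8 and 9, and 8 below 8. The order in KO and WT was nearly the same, with a Spearman correlation of 0.973 between the group means of the 42 members, and no member moved by more than 6 places when ranked in one genotype alone.

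Zbtb44 had the highest signal of the family. This little-studied gene measured 10.77, 10.79 and 10.62 in KO and 10.70, 10.61 and 10.44 in WT. Zbtb11, needed for blood cell development in zebrafish, followed at a mean of 10.46, then Kaiso (Zbtb33) at 10.25 and the neuronal repressor Zbtb18 at 9.92. Zbtb1, which lymphoid progenitors need, stood at 9.70, and the genes Zbtb25, Zbtb41 and Zbtb14 at 9.63, 9.55 and 9.43. KO and WT arrays overlapped in all 8 of these genes.

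The dimmest members included those that define other lineages. Zbtb7b was at 6.74, 6.75 and 6.55 in KO and 6.57, 6.75 and 6.70 in WT, Zbtb46 at a mean of 7.21, Zbtb32, a gene of activated and memory B cells, at 7.25, and Zbtb16 at 7.27. For scale, the 10 measured markers of T and NK cells read 5.0 to 8.04 with a median of 6.66. Thy1 (8.04) and Zap70 (7.60) were highest, followed by Cd3e (7.33), and each lay above all of these members. Whether the sorted cells lacked every one of these marker transcripts was not tested. Zbtb8b was lowest at 5.74, close to the upper end of the Y-linked genes in arrays without a Y chromosome. Zbtb7c (7.35), Zbtb11os1 (7.77) and Zbtb12 (7.89) complete the 8 members below 8. Signals at this height do not show that a transcript was present.

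**Figure D1:**
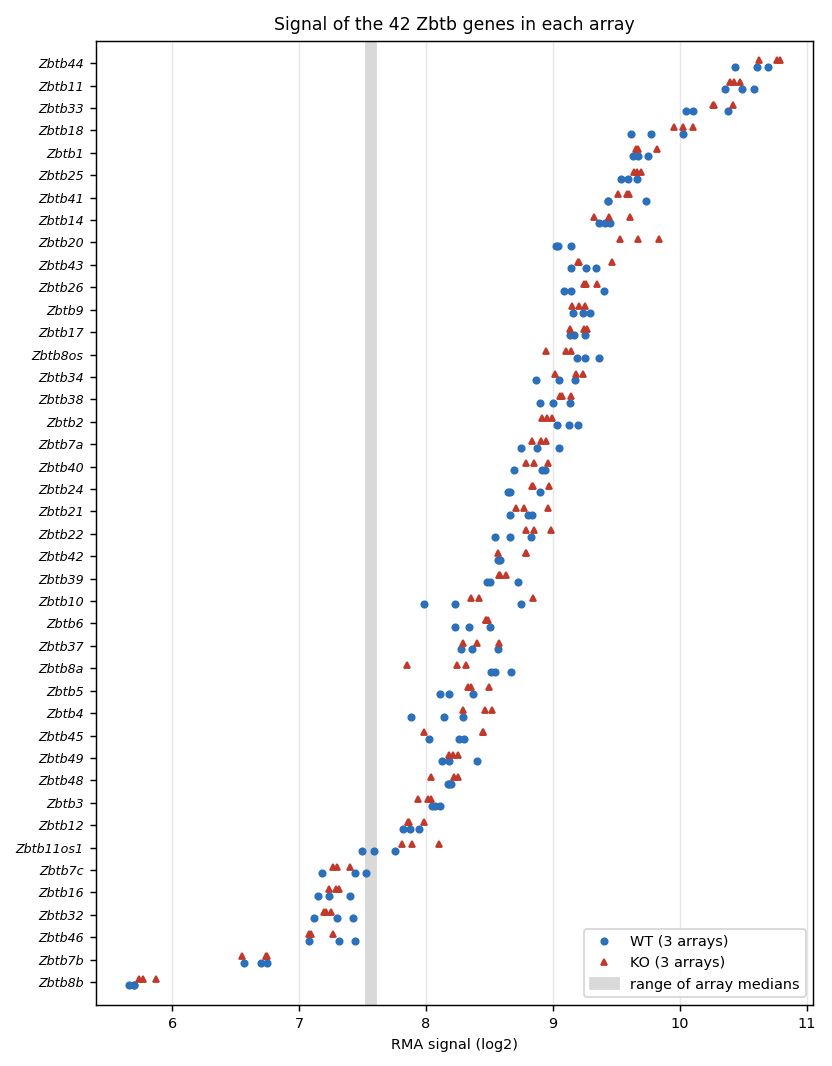
RMA signal on the log2 scale (x axis) of the 42 Zbtb genes, ordered by their mean, in 3 KO arrays (triangles) and 3 WT arrays (circles), with the range of array medians (7.53 to 7.61) shaded. Means run from 5.74 for Zbtb8b to 10.65 for Zbtb44, the genotypes overlap for most genes, and Zbtb20 and Zbtb8a are among those that separate.

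The comparison of KO with WT asked whether loss of gamma-catenin changed family transcripts in these cells, using limma across all 21789 probe sets. Zbtb20 was higher in KO by 1.53-fold on its brighter probe set and Zbtb8a lower by 1.36-fold, while the median size of the difference over the members, regardless of sign, was 0.07 on the log2 scale. With the probe set rule above, 0 of 42 members passed an adjusted p of 0.05 in limma, against 0.119% of all probe sets (0.0505% higher and 0.0688% lower). At an unadjusted p under 0.05 there were 5 members (11.9%, 3 higher and 2 lower), against 9.22% of all probe sets (4.48% higher and 4.73% lower), a share near the background. The genotypes were fully separated for 8 members (19.0%, 4 each way), against 14.0% of all probe sets (5.94% with KO higher and 8.08% with KO lower). In bulk samples, fewer cells of a type and less RNA per cell cannot be told apart.

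The counts at unadjusted p depended on single arrays. Without WT replicate 1 there were 12 members (28.6%; 10 higher, 2 lower), against 16.1% of all probe sets in that fit. Without KO replicate 2 there were 2 (4.76%, against 5.14%), and without WT replicate 2 there were 3 (7.14%, against 7.04%). Without the noncoding and archease-related genes, chosen after the data were seen, 3 of 40 remained.

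Differences were small as a rule. The mean differences ran from -0.44 to 0.61 with a median of 0.04, against -0.02 over all probe sets. KO means were higher for 31 of 42 members (73.8%), against 44.2% of all probe sets and 46.0% of those at or above the 40th percentile of signal. The 31 became 29 under a further quantile normalization and 25 without KO replicate 2 or without WT replicate 3. The 95% interval of the difference spanned 0 for 37 members, with a median half-width of 0.21, so for a typical member the arrays could not tell a difference of that size from none.

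**Figure D2:**
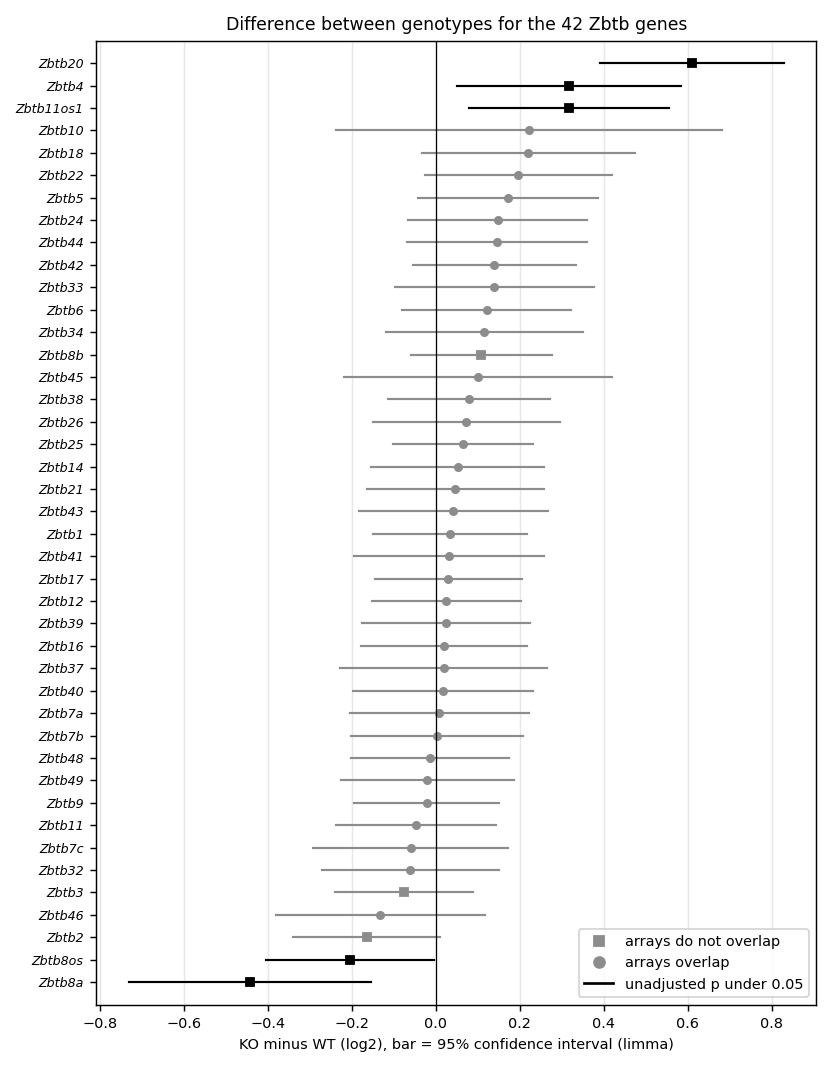
KO minus WT on the log2 scale (x axis) with 95% confidence intervals from limma for the 42 Zbtb genes, ordered by difference. Black marks an unadjusted p under 0.05 and squares mark genes whose KO and WT arrays do not overlap. Zbtb20 stands at 0.61 and Zbtb8a at -0.44, and the interval crosses 0 for 37 genes.

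Zbtb20 was the 1 family gene with a probe set past the threshold over all probe sets. Its brighter probe set, 10435769, measured 9.53, 9.84 and 9.67 in KO and 9.02, 9.14 and 9.04 in WT. Every KO array lay above every WT array, with means of 9.68 ± 0.16 and 9.07 ± 0.06 (SD, n = 3 each). The difference of 0.61 (SE 0.10, 95% interval 0.39 to 0.83) missed the threshold (limma adjusted p = 0.0801).

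Its other probe set, 10435789, read 9.36, 9.54 and 9.60 in KO and 8.75, 8.74 and 8.73 in WT. The WT arrays were almost identical, with means of 9.50 ± 0.13 in KO and 8.74 ± 0.01 in WT (SD, n = 3 each). The difference of 0.77 (SE 0.08, 95% interval 0.57 to 0.96), or 1.70-fold, passed (limma adjusted p = 0.0261). With all arrays, the signal of this probe set was therefore called higher in KO. The platform annotation ties the brighter probe set to 3 curated RefSeq mRNAs of Zbtb20 among 14 accessions, and the other to 0 curated mRNAs, 4 predicted ones and 1 cDNA clone. The same 4 predicted mRNAs are also assigned to the brighter probe set. Both probe sets had differences of the same sign, and with their mean as the gene's value the difference was 0.69 (limma adjusted p = 0.0328).

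The call depended on the arrays used. For the second probe set the limma adjusted p was 0.0178 without KO replicate 1 but 0.114 and 0.122 without KO replicates 2 and 3, and 0.0841, 0.0551 and 0.104 without WT replicates 1, 2 and 3. The difference itself stayed between 0.715 and 0.836. Leaving out WT replicate 2, the array with Y-linked signal, gave 0.65 on the brighter probe set and 0.77 on the other.

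Transcripts of myeloid cells were also higher in the KO arrays. Of 15 measured myeloid markers 14 had a higher KO mean, against 44.2% of all probe sets. In limma 3 passed (Mpo, Ctsg and Elane, genes of primary granules), all higher, against 0.0505% of all probe sets. The mean signal over the list was 8.67 to 8.80 in KO and 7.78 to 8.29 in WT. Their part in the Zbtb20 result was not tested. Of the markers of plasma cells, where Zbtb20 is known to be expressed, 5 of 7 had a lower KO mean, where 44.2% of all probe sets were higher. Irf4 (0.27) and Jchain (0.09) were higher in KO. In limma 0 passed the threshold. At an unadjusted p under 0.05, 2 were lower (Xbp1 and Mzb1), against 4.73% of all probe sets. Xbp1 (mean 11.7) and Mzb1 (12.7) were bright, while Jchain, Tnfrsf17 and Prdm1 had means of 6.25 to 6.64. The mean over the plasma cell list was 8.94 to 9.12 in KO and 9.05 to 9.27 in WT.

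**Figure D3:**
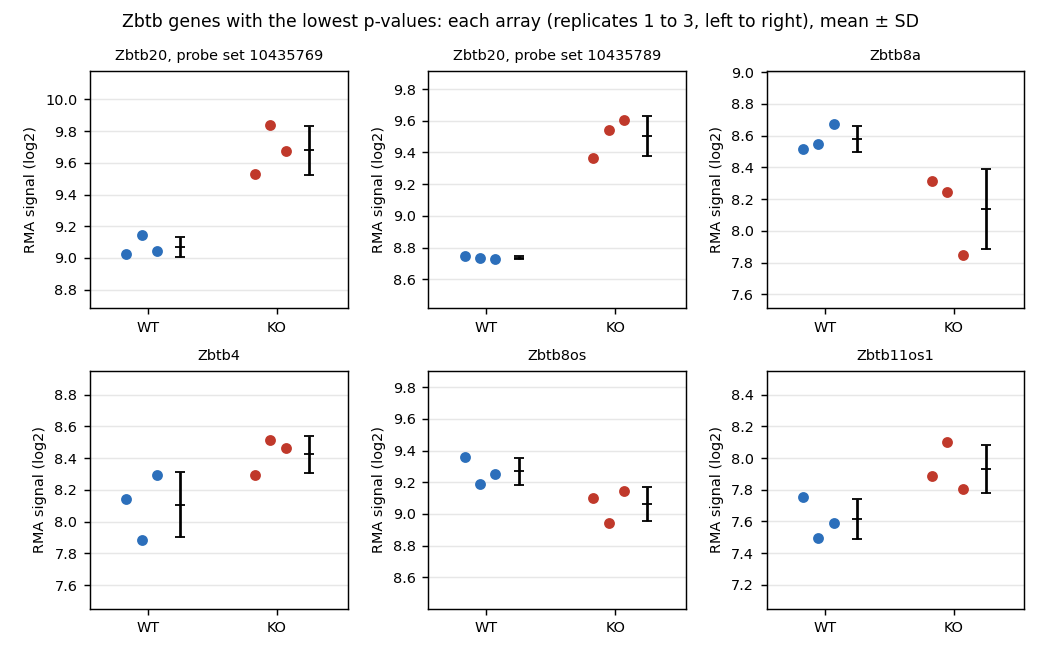
RMA signal on the log2 scale (y axis, each panel spanning the same height) in each WT and KO array, replicates 1 to 3 from left to right, with the mean and SD of 3 arrays beside them, for both Zbtb20 probe sets and the 4 other members at an unadjusted p under 0.05. The 3 KO arrays lie above all WT arrays for both Zbtb20 probe sets and below them for Zbtb8a, and for Zbtb4 the nearest KO and WT arrays both read 8.29.

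Zbtb8a had the largest negative difference. It measured 8.31, 8.25 and 7.85 in KO and 8.51, 8.55 and 8.67 in WT. KO replicate 3 was lowest, and all KO arrays lay below all WT arrays. The difference of -0.44 (SE 0.13, 95% interval -0.73 to -0.16) had a limma adjusted p of 0.318, and without KO replicate 3 it was -0.30.

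The neighbouring gene Zbtb8os was also lower in KO. It read 9.10, 8.94 and 9.15 in KO and 9.36, 9.19 and 9.25 in WT, a difference of -0.20 (SE 0.09, limma adjusted p = 0.534). Zbtb8b, on the other side of Zbtb8a, had a difference of 0.11 (95% interval -0.06 to 0.28) with every KO array above every WT array, at a signal too low to be read as expression. The 3 genes are consecutive in RefSeq.

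Zbtb4, a Kaiso-like protein that binds methylated CpG, had a positive difference. It measured 8.29, 8.52 and 8.47 in KO and 8.14, 7.88 and 8.29 in WT. KO replicate 1 and WT replicate 3 differed only in the third decimal. The difference was 0.32 (SE 0.12, limma adjusted p = 0.448).

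The other proteins of that type did not differ beyond the spread of their arrays. Kaiso (Zbtb33), the 1 member on the X chromosome, had a difference of 0.14 (95% interval -0.10 to 0.38). It read 10.27, 10.42 and 10.27 in KO and 10.38, 10.11 and 10.05 in WT, with overlapping groups. Zbtb38 gave an interval of -0.11 to 0.27.

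Zbtb11os1 was higher in KO at 7.89, 8.10 and 7.81, against 7.75, 7.50 and 7.59 in WT. Its mean of 7.77 is at a height that does not show that a transcript was present. The groups did not overlap, and the difference of 0.32 (SE 0.10) had a limma adjusted p of 0.388. Its partner Zbtb11 gave -0.05 (95% interval -0.24 to 0.14). The annotated genes overlap on opposite strands, and no source used here says which strand their probes read.

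Other members lie next to each other in the genome. Zbtb1 and Zbtb25, which overlap at their starts, had differences of 0.03 and 0.06. Zbtb6 and Zbtb26 gave 0.12 and 0.07, and Zbtb34 and Zbtb43 gave 0.12 and 0.04. In each of these pairs both intervals spanned 0, and the signs for Zbtb1 and Zbtb43 turned under some alternatives.

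Apart from Zbtb20, the members known for parts in blood cells had overlapping KO and WT arrays. Zbtb7a measured 8.84, 8.91 and 8.95 in KO and 9.05, 8.88 and 8.75 in WT, with a difference of 0.01 (95% interval -0.21 to 0.22). Zbtb17 gave 0.03 (95% interval -0.15 to 0.21) at signals of 9.13 to 9.27 in all 6 arrays. Zbtb24, whose human counterpart is mutated in an immunodeficiency with centromere instability, gave 0.15 (95% interval -0.07 to 0.36). The intervals of Zbtb1, Zbtb7b, Zbtb16, Zbtb32 and Zbtb46 also spanned 0, with differences of 0.03, 0.00, 0.02, -0.06 and -0.13. The signs for Zbtb1, Zbtb7a, Zbtb7b, Zbtb11, Zbtb16 and Zbtb32 turned under some other setting or choice of arrays.

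Further members separated the groups by small amounts or were uneven within them. Zbtb2, a repressor in the p53 pathway, read 8.95, 8.99 and 8.91 in KO and 9.13, 9.20 and 9.03 in WT, a difference of -0.17 (95% interval -0.34 to 0.01). Its second probe set gave -0.10 with overlapping arrays. Zbtb3 gave -0.08, with the highest KO array just below the lowest WT array. Zbtb18 (0.22) and Zbtb22 (0.20) had overlapping groups and unadjusted limma p-values of 0.0807 and 0.0754.

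Zbtb10, a telomere-binding member, varied most. It measured 8.36, 8.85 and 8.41 in KO and 8.75, 8.23 and 7.98 in WT, so KO replicate 2 and WT replicate 1 were the high arrays. Its SD within a genotype, averaged as variances, was 0.34, against a median of 0.11 over the members and 0.12 over all probe sets. Its difference of 0.22 (95% interval -0.24 to 0.68) became 0.0674 when KO replicate 2 was left out, and 0.435 or 0.0525 when WT replicate 1 or 3 was.

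The same arrays stood high across the family. KO replicate 2 held the highest of the KO signals for 26 of 42 members, and WT replicate 1 the highest of the WT signals for 27. Over all probe sets these arrays were highest of their genotype for 34.1% and 39.5%. As the deviation from each gene's own mean over the 6 arrays, the median over members was 0.08 in KO replicate 2 and 0.05 in WT replicate 1. It was 0.01 and -0.00 in KO replicates 1 and 3 and -0.07 and -0.06 in WT replicates 2 and 3.

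**Figure D4:**
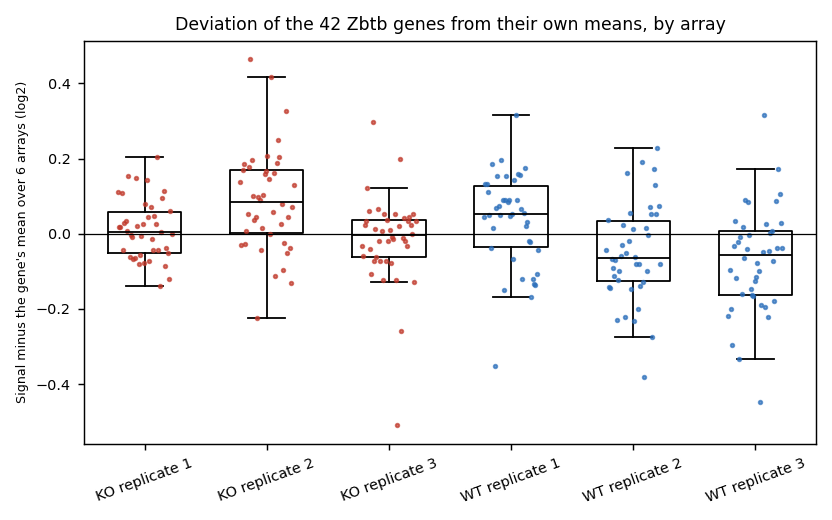
Signal of each of the 42 Zbtb genes minus that gene's mean over the 6 arrays, on the log2 scale (y axis), in each array (x axis). Points are genes, boxes show quartiles and whiskers reach the farthest gene within 1.5 box lengths. KO replicate 2 (median 0.08) and WT replicate 1 (0.05) sit high, and WT replicates 2 and 3 low (-0.07 and -0.06).

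BTB zinc finger genes that go by other symbols were looked at beside the family. Of 10 listed symbols 8 were measured, 1 higher and 7 lower in KO, where 44.2% of all probe sets were higher. In limma 0 passed the threshold and 1 was higher at an unadjusted p under 0.05, against 4.48% of all probe sets. That gene was Bcl6, the repressor of germinal centre B cells, which measured 7.51, 7.86 and 7.87 in KO and 7.55, 7.46 and 7.35 in WT. KO replicate 1 lay within the WT range, and the difference was 0.30 (SE 0.11, limma adjusted p = 0.467). Patz1, which encodes a regulator of thymocyte and p53 genes, gave -0.00, a sign that turned under some settings. Hic1 (-0.15) and Zfp131 (-0.13) had the lowest moderated t, and became -0.05 and -0.23 without WT replicate 3 and -0.23 and -0.06 without WT replicate 1. The mean signals of Bcl6 (7.60) and Hic1 (6.49) do not show that a transcript was present.

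The corepressors and other partners through which ZBTB proteins act were also described. Of 24 listed, 22 were measured, 11 higher and 11 lower, with a median difference of -0.01. In limma 0 passed, and 3 higher and 1 lower had an unadjusted p under 0.05, against 4.48% and 4.73% of all probe sets. The largest difference was in Hdac5, a class IIa histone deacetylase, at 9.07, 10.11 and 9.55 in KO and 8.59, 8.38 and 8.44 in WT.

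All Hdac5 values were higher in KO but scattered widely there. The difference of 1.11 (SE 0.22, 2.16-fold) missed the threshold (limma adjusted p = 0.150), and it passed without KO replicate 1 (limma adjusted p = 0.0329, with 0.0329 to 0.368 over all alternatives). Bcor, a corepressor that binds BCL6, gave 0.23, and Hdac7, a class IIa deacetylase of early B cells, gave 0.19. Hdac1 gave -0.21 and the Miz-1 cofactor Npm1 -0.17. The arrays of these 5 genes, of 22 measured partners, did not overlap between genotypes (3 higher and 2 lower in KO). Over all probe sets the shares were 5.94% higher and 8.08% lower. Cul3 differed by -0.03.

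Genes reported as direct targets of ZBTB proteins were listed as well. Of 12 such genes, 10 were measured, 3 higher and 7 lower in KO, where 44.2% of all probe sets were higher. In limma 0 passed the threshold and 3 were lower at an unadjusted p under 0.05, against 4.73% of all probe sets. Afp, which Zbtb20 represses in liver, gave -0.29 (SE 0.09, limma adjusted p = 0.372). Its low signal of 6.11 to 6.60 does not show that a transcript was present. Nfkbia, the NF-kB inhibitor that Zbtb20 represses in macrophages, gave 0.33 with overlapping arrays. Bcl2, whose expression in early B cells depends on Miz-1, gave -0.49 (SE 0.09, limma adjusted p = 0.106), beside the 0.03 of Zbtb17 itself. With array weights Bcl2 passed (limma adjusted p = 0.0467, with 0.0467 to 0.393 over all alternatives). Cdkn2a, a target that LRF represses, gave -0.28 (limma adjusted p = 0.464) with overlapping arrays. Ciita, which Zbtb32 represses, gave 0.20 with overlapping arrays, and 0.08 without KO replicate 2 or 0.10 without WT replicate 1. The mean signal of Ciita, 7.08, does not show that a transcript was present.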

How the data were processed

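Per the labels' protocols, amplified and biotin-labelled total RNA was hybridised to 1-colour whole-transcript arrays. The range of the deposited values shows a log2 scale. The submitters' processing notes name RMA and Affymetrix Expression Console 1.1. RMA usually equalises arrays and compresses differences of dim transcripts; its options are not given in the sources used here. Precision is limited by the number of arrays.

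The 35556 rows were named through the platform annotation, where 21789 have 1 symbol, 1621 several and 12146 none. All 45 member probe sets matched RefSeq gene IDs with unchanged symbols. The genotypes were compared in R 4.3.3 by limma 3.58.1 (lmFit, eBayes with a constant prior, two-sided) on all 21789 probe sets, without covariate or filter, with Benjamini-Hochberg adjustment and a threshold of 0.05. Differences are KO minus WT, with moderated standard errors. The fit was tested on simulated data. Members and lists were chosen with earlier results of these data known. Named are members past a threshold, the 5 largest differences each way, the 8 highest and 8 lowest signals and members known in blood cells, and from the lists those at unadjusted p under 0.05 and the 2 highest and 2 lowest by moderated t. Xbp1, Mzb1, Rag1, Rag2, Enpep, Thy1, Zap70, Cd3e, Cul3, Zbtb22, Zbtb38 and the neighbouring pairs were named after their values were seen. So were Irf4, Jchain, Tnfrsf17 and Prdm1. Alternatives tried were filtering dim probe sets, other rows, probe set rules, priors, array weights, scalings, the replicate block and each array left out.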

Additional observations from a re-analysis of the deposited data

How the results depend on the processing

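With 3 arrays a genotype, the calls depended on single arrays. Members past the threshold were 1 (Zbtb20) rather than 0 when probe sets were averaged per gene, with a trended and robust prior, array weights or, chosen after seeing the data, the probe set with the lowest p per gene, and 0 to 1 with an array left out. For Zbtb20 these settings gave 0.688, 0.61, 0.589 and, on the second probe set, 0.766, with limma adjusted p of 0.0328, 0.0449, 0.0378 and 0.0261. Leaving out arrays gave 0.53 to 0.686, and over all alternatives the adjusted p was 0.0261 to 0.233. Members at unadjusted p under 0.05 were 11 with array weights (26.2%, against 16.9% of all probe sets in that fit), 8 with a further quantile normalization (19.0%, against 11.3%), 3 without Zbtb8os and Zbtb11os1, and 2 to 12 with an array left out. The median difference of the members stayed between 0.0128 and 0.0835. Of all probe sets 26 passed, against 69 with all rows, 40 with the trended prior, 150 with array weights, 17 with quantile normalization and 5 to 82 with an array left out. Partner genes past the threshold were 0 to 1 with an array left out.

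Under at least 1 setting the sign turned for 18 of 42 members, whose differences were at most 0.0606 in size. Of the other genes carried through the settings, it turned for Patz1 alone. Cul3, Jup and the cell type markers were not among the genes carried through. Array weights gave 0.0257 for Patz1, -0.0437 for Zbtb16 and -0.048 for Zbtb7b, centring gave 0.00369 for Patz1, and quantile normalization -0.00777 for Zbtb7a. With an array left out the ranges were -0.053 to 0.0517 for Patz1, -0.0187 to 0.0667 for Zbtb1, -0.109 to 0.00664 for Zbtb11, -0.0361 to 0.0886 for Zbtb16, -0.143 to 0.0105 for Zbtb32, -0.0631 to 0.0866 for Zbtb7a and -0.0494 to 0.0684 for Zbtb7b. Of 565 single-gene values under alternatives, both Zbtb20 probe sets included, 536 kept direction and side of the threshold. Where the main adjusted p was far above 0.05, keeping that side was likely in advance and says little about stability. With an array left out, 24 of 38 single-gene differences moved by over 1.5 times. Of these 24, only 1 had an unadjusted limma p under 0.05 in the main fit. The cause of these changes was not tested.

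Replicate numbers are shared between genotypes. Deviations from the genotype means correlated at 0.104, -0.00431 and 0.275 for same-numbered arrays, and at -0.251 to 0.134 for differently numbered ones. These values do not settle whether the numbers pair samples, and the main fit did not pair them. With the replicate block 19 probe sets passed, Zbtb20 gave 0.61 (limma adjusted p = 0.0704), and its second probe set missed the threshold (limma adjusted p = 0.0633).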
